A study of Schizosaccharomyces pombe with 6 samples.

Results

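Described here is the baseline transcriptome of fission yeast, Schizosaccharomyces pombe, growing in rich medium, as measured in the control libraries of an experiment on beta-estradiol. These were chosen as the samples labelled control, which are 3 of the 6 libraries of the series. The other 3 come from cells kept for 3 h with 1 µM beta-estradiol in ethanol, and they are not used here. Control cells had the vehicle for the same 3 h. All cells were asynchronous and in log phase in liquid YES, a yeast extract medium with glucose and supplements, at 30 °C. The series design describes biological triplicates, and the labels give no genotype. No column name carries the replicate number of a label, so the libraries are called control library 0, 1 and 2 after their columns. Because 1 condition is described, no test between conditions was run, and each error is the spread between the 3 libraries.

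Fission yeast ferments glucose quickly even in air, so glycolysis and the translation machinery dominate its mRNA during fast growth. Genes for other sugars, for starvation, for mating and for meiosis are known to be held low in such cells. The level of an RNA in FPKM is a number of sequenced fragments divided by transcript length and by library size, so genes can be compared within a library. A level is an average over the culture: many cells with little RNA and few cells with much cannot be told apart.

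The table listed 7016 features, and their names sort them into classes. Genes named for chromosomes I, II and III (prefixes SPA, SPB and SPC) numbered 2343, 1885 and 930. The prefix SPNCRNA, for non-coding RNAs, covered 1537 features. Transfer RNAs (SPTRNA) numbered 171, snoRNAs (SPSNORNA) 53, ribosomal RNAs (SPRRNA) 49 and snRNAs (SPSNRNA) 7. IDs with the mitochondrial prefix SPMIT numbered 11, mitochondrial tRNAs (SPMITTRNA) 25, and 4 more IDs began with SPMTR. The last feature was named GFP, the green fluorescent protein of a jellyfish, and the labels do not describe its construct. By name, 6861 features were matched to the NCBI RefSeq annotation of assembly ASM294v3, and 155 were not, the SPMIT IDs among them.

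The typical feature had 27.7 FPKM, and the level of the median feature differed little between libraries, at 27.2, 27.4 and 27.5 FPKM in control libraries 0, 1 and 2. As a mean over the libraries, 3822 features (54.5%) lay from 10 up to 100 FPKM, 950 lay from 100 up to 1000 FPKM, and 184 reached 1000 FPKM. Chromosome-named genes had a median of 38.8 FPKM, and 95.6% of them reached 1 FPKM. SPNCRNA features had a median of 4.50 FPKM, and 73.2% reached 1 FPKM. The median of the protein-coding genes was 38.7 FPKM on chromosome I, 41.2 FPKM on chromosome II and 36.4 FPKM on chromosome III. It was 37.7 FPKM for genes with 1 exon, 44.4 FPKM for genes with 2 exons and 37.7 FPKM for genes with 3 or more, so these medians lay close together.

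**Figure D1:**
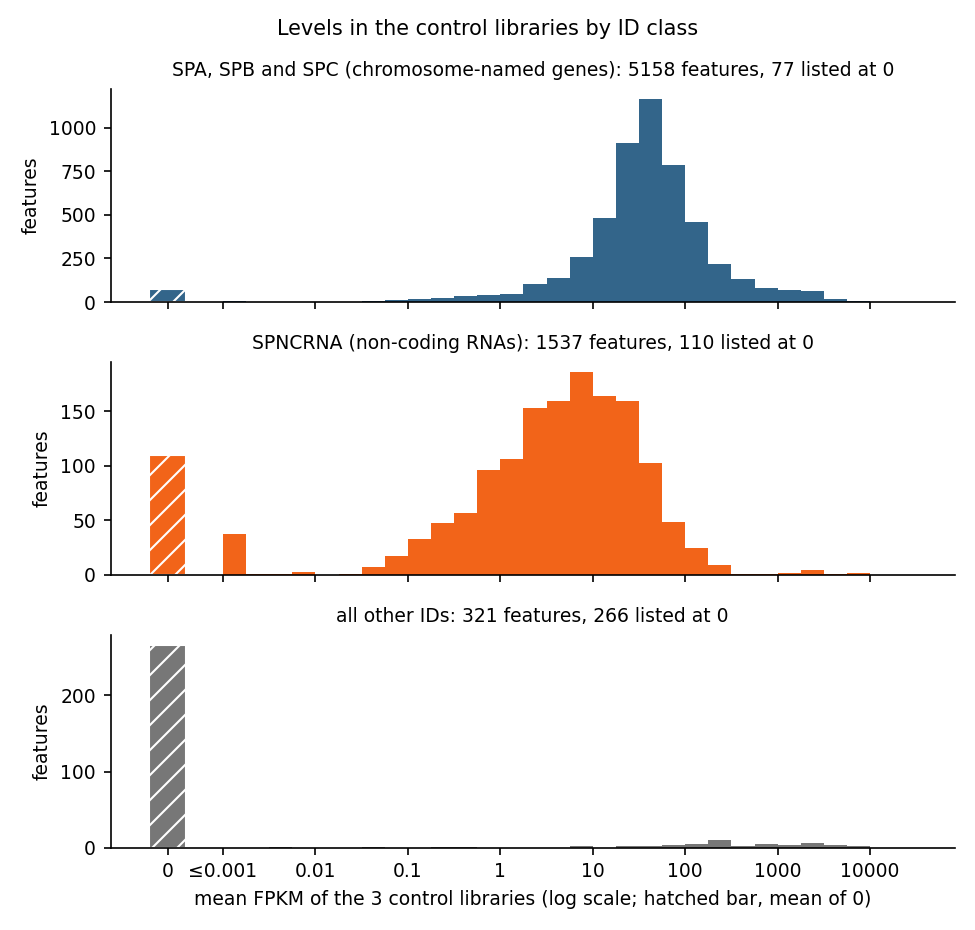
Histogram of the mean FPKM over the 3 control libraries (log axis) for chromosome-named genes, non-coding RNAs and all other IDs, with a hatched bar for features at 0 in every library. Chromosome-named genes form 1 peak around their median of 38.8 FPKM, non-coding RNAs a lower and broader one around 4.50 FPKM, and 266 of the 321 other features are listed at 0.

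The summed FPKM was concentrated in few features. The 100 most abundant took 40.4%, 39.3% and 39.9% of it in control libraries 0, 1 and 2. In the mean of the libraries, 159 features held 50% of the sum and the 1000 most abundant held 80.0%. Of the 100 most abundant, 79 were protein-coding genes of the reference: 53 were ribosomal protein genes, 8 glycolysis genes, 6 translation elongation factor genes and 3 chaperone genes. A further 7 were SPMIT IDs and 8 were SPNCRNA features.

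Genes of glycolytic enzymes held the first 3 places of the table. The highest was tdh1, a glyceraldehyde 3-phosphate dehydrogenase, with 21381, 16616 and 17035 FPKM in control libraries 0, 1 and 2. It took 2.15% of the summed FPKM on its own. Among the other glycolysis genes were fba1 (fructose bisphosphate aldolase) at 9724 ± 941 FPKM (SD, n = 3), eno101 (enolase) at 9715 ± 900 FPKM and gpm1 (phosphoglycerate mutase), the fifth feature of the table, at 8805 ± 1151 FPKM. The order of fba1 and eno101 is not resolved by their spread. Pyruvate decarboxylase pdc101 stood at 5390 ± 598 FPKM, phosphoglycerate kinase pgk1 at 5069 ± 672 FPKM, triose phosphate isomerase tpi1 at 4286 ± 441 FPKM and pyruvate kinase pyk1 at 3550 ± 225 FPKM. Enzymes of the upper steps were lower: pfk1 (phosphofructokinase) had 936 ± 47.1 FPKM, pgi1 (glucose 6-phosphate isomerase) 702.5 ± 56.5 FPKM, and the hexokinases hxk2 and hxk1 had 615 ± 82.2 and 239 ± 12.7 FPKM. The 18 genes of the list summed to 8.65%, 7.22% and 7.91% of the FPKM in control libraries 0, 1 and 2, highest in library 0.

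Ribosomal proteins took the largest share of any list examined. The 142 genes summed to 29.5%, 29.0% and 26.2% of the FPKM in control libraries 0, 1 and 2. Their median was 1576 FPKM, against 39.2 FPKM for all protein-coding features, and 141 of the 142 had at least 100 FPKM. Genes of the large subunit (rpl, 76 genes) had a median of 1478 FPKM and those of the small subunit (rps, 55 genes) a median of 1683 FPKM. The highest were rpl8 at 4871 ± 302 FPKM, ubi3, a fusion of ubiquitin with a ribosomal protein, at 4222 ± 300 FPKM, and rps7 at 4169 ± 205 FPKM. The lowest were rpl3002 at 224 ± 21.9 FPKM and rpl1603 at 94.4 ± 4.86 FPKM.

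Many ribosomal proteins of yeast are made from several gene copies, and 53 sets of copies named alike, 111 genes, were measured. Within a set the highest copy exceeded the lowest by a median of 1.67 times, and by over 2 times in 19 sets. The widest ratio was that of rpl1602 (1982 FPKM) over rpl1603, 21.0 ± 0.820 (SD, n = 3), and rpl1603 lies wholly under apl1 on the other strand (6.42 ± 0.129 FPKM). The ratio of rpl3401 (3666 FPKM) over rpl3402 (318 FPKM) was 11.5 ± 1.49. In 48 of the 53 sets the same copy was highest in all 3 libraries. Copies with near-identical sequence may share reads, as with rpl1202 and rpl1201 (685 and 683 FPKM), in which 39.3% and 14.9% of the 50-base windows occur once in the genome. For rpl1602, rpl1603 and both rpl34 copies every such window is unique.

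Other translation genes differed in level. The 9 elongation factor genes had a median of 2393 FPKM, against 1576 FPKM for ribosomal proteins. Translation elongation factor eEF1A, which brings aminoacyl-tRNA to the ribosome, is encoded by 3 genes: tef103 had 4854 ± 371 FPKM, tef101 3854 ± 237 FPKM and tef102 1665 ± 99.3 FPKM. Their sequences are so alike that 27.7% of the windows of tef103 are unique, and the split between the copies is uncertain. The eEF3 gene tef3 had 2737 ± 213 FPKM, and the eIF5A genes tif512 and tif51 had 2726 ± 140 and 2393 ± 80.7 FPKM. Translocation factor eEF2 was lower, with eft202 at 752 ± 35.4 FPKM and eft201 at 398 ± 15.9 FPKM. The 18 aminoacyl-tRNA ligase genes, which charge tRNAs, had a median of 341 FPKM, led by krs1 (lysine) at 510 ± 13.1 FPKM, prs1 (proline) at 485 ± 32.3 FPKM and gus1 (glutamate) at 436 ± 10.5 FPKM. Their low end was frs1 (phenylalanine) at 231 ± 16.8 FPKM and wrs1 (tryptophan) at 163 ± 6.52 FPKM, apart from qrs1, which was listed at 0.

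**Figure D2:**
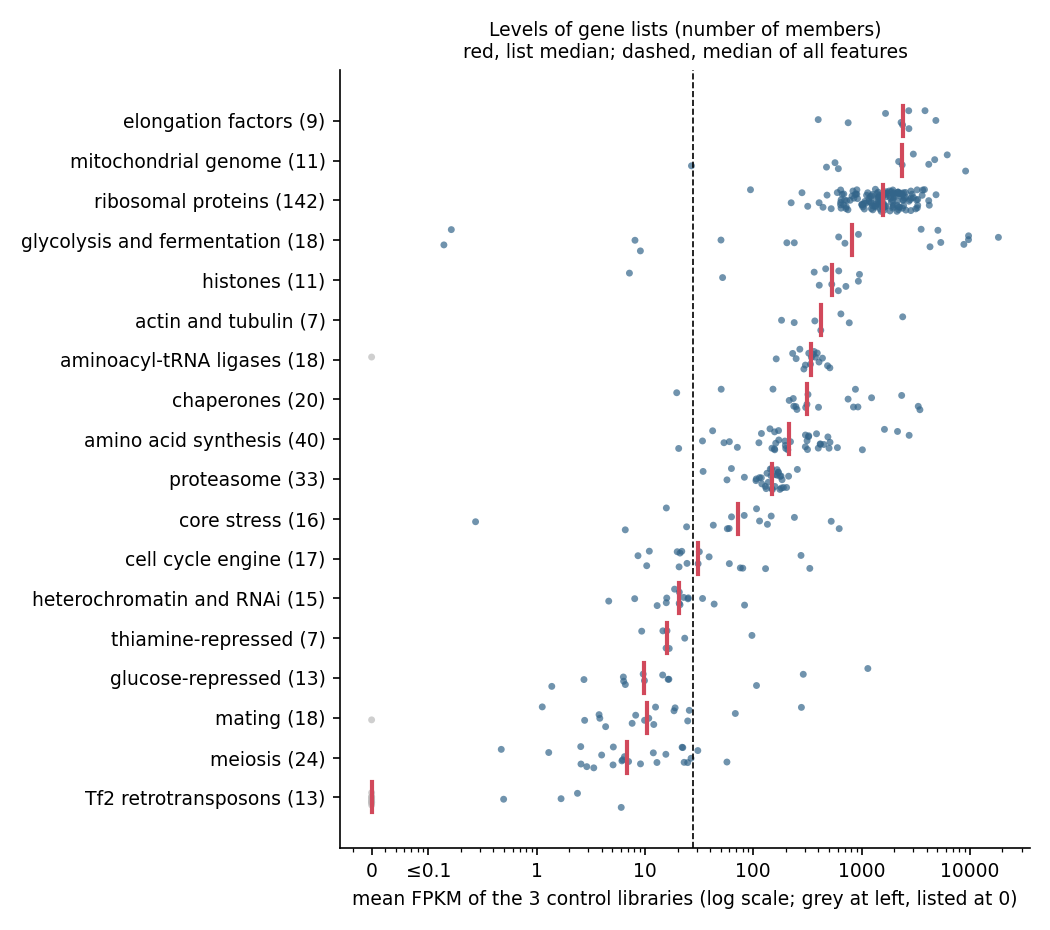
Mean FPKM over the 3 control libraries (log axis) of each member of 18 gene lists, with the list median in red and the median of all 7016 features (27.7 FPKM) dashed. Ribosomal protein genes gather around 1576 FPKM, glycolysis genes spread from 0.139 to 18344 FPKM, and 9 of 13 Tf2 entries are listed at 0.

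Ribosomal protein genes of fission yeast are known for a promoter element named the HomolD box, which stands in for a TATA box, often with a HomolE box before it. Promoters were read from ASM294v3 as the 250 bases before the annotated start and the 50 bases after it. The letters searched were CAGTCACA for HomolD and ACCCT repeated back to back for HomolE, each on both strands, and TATAAA on the gene's strand. None of these runs of letters contains another. The promoters printed next are the 100 bases before the start, from 6 genes with the HomolD letters and from the 3 highest glycolysis genes. Capitals mark the letters of HomolD or HomolE in the first 6 and TATAAA in tdh1, and fba1 and eno101 hold none of them in this stretch. Only exact letters were searched. The run TATATA, present in fba1, eno101, tpi1 and tef103, was not counted, and whether it acts as a TATA box was not tested.
rpl8 (chrII:2045375-2045474, + strand): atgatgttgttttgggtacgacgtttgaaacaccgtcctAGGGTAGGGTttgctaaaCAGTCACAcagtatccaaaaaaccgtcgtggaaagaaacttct
rps7 (chrI:2242531-2242630, - strand): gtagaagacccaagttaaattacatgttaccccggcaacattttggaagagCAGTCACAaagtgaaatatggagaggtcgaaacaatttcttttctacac
rps102 (chrI:898963-899062, - strand): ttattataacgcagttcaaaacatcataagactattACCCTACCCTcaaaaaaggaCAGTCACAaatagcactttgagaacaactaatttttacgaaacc
rps3 (chrII:4239340-4239439, - strand): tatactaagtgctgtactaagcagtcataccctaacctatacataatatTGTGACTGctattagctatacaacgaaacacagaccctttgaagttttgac
tef103 (chrII:627523-627622, - strand): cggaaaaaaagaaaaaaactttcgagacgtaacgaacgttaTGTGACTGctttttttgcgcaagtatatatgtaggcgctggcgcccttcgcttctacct
tpi1 (chrIII:939813-939912, + strand): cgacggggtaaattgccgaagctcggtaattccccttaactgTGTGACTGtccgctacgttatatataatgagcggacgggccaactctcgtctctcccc
tdh1 (chrII:2807495-2807594, + strand): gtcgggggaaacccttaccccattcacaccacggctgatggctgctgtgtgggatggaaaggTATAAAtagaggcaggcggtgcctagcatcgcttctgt
fba1 (chrII:1688221-1688320, + strand): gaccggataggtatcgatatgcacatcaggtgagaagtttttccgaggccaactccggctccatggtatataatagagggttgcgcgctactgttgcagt
eno101 (chrII:2201096-2201195, + strand): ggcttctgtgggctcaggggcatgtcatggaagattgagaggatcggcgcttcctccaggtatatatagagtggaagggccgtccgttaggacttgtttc

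The letters CAGTCACA were found in 137 of 5108 protein-coding promoters (2.68%) and in 90 of the 142 ribosomal protein promoters (63.4%). Among the 100 most abundant protein-coding genes, 60 held them. In ribosomal protein promoters the box began a median of 51 bases before the start. As CAGTCACA on the gene's strand it occurred in 61 of them, a median of 48 bases before the start, and as TGTGACTG in 30, a median of 57 bases before it. Ribosomal protein genes with the letters had a median level of 1678 FPKM and those without had 1362 FPKM. The HomolE letters were found in 41 ribosomal protein promoters (28.9%) and in 1.25% of all. TATAAA was found in 27 ribosomal protein promoters (19.0%) and in 30.2% of all, and in 8 of the 18 glycolysis promoters. Those 8 glycolysis genes had a median of 222 FPKM, and the glycolysis genes without TATAAA had 2243 FPKM.

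Abundant genes with the HomolD letters were not limited to ribosomal proteins. Outside that list, 14 of the 100 most abundant protein-coding genes held them. These included tef103, tef101, tef102 and tef3 of translation elongation, and the eIF4A helicase gene tif1 (2031 ± 218 FPKM). They also included the ribosome-bound chaperone gene sks2 (3458 ± 111 FPKM) and btf3, a subunit of the nascent polypeptide-associated complex (2466 ± 155 FPKM). The RACK1 homologue cpc2, which sits on the small subunit, had 2106 ± 165 FPKM, and tma19, for the translationally controlled tumour protein, had 2515 ± 89.6 FPKM. Of glycolysis, tpi1 alone of the 18 genes held the letters. Genes with and without the box were both found among the most abundant: the 60 with it had a median of 2221 FPKM and the 40 without it 2395 FPKM.

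Abundant genes also shared a choice of codons. Of lysine codons, AAG made up 88.1% in the 100 most abundant protein-coding genes and 37.4% in all of them. CGT made up 74.1% of arginine codons in the 100 most abundant and 30.9% in all, while CGG made up 0.231% and 6.16%. For phenylalanine, TTC made up 70.2% and 28.1%. The preference was not limited to ribosomal proteins: among the 100 most abundant genes outside that list, CGT made up 73.9% of arginine codons and AAG 75.7% of lysine codons. In the lower 50% of genes by level these shares were 24.01% and 33.4%. These counts describe the coding sequences of the reference and were not compared by a test.

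Other growth genes were high too. The Hsp70 gene ssa2 had 3338 ± 204 FPKM, hsp90 2346 ± 37.0 FPKM and the mitochondrial Hsp70 gene ssc1 1238 ± 31.7 FPKM. The actin gene act1 had 2398 FPKM, cofilin gene adf1 770 ± 45.3 FPKM, and the tubulin genes nda3, nda2 and atb2 had 371 ± 9.61, 239 ± 4.66 and 183 ± 15.5 FPKM. The core histone genes lay between 365 FPKM (hhf2) and 957 FPKM (htb1). The variant H2A.Z gene pht1 had 52.2 ± 4.04 FPKM, and cnp1, the histone of centromeres, 7.20 ± 0.379 FPKM. Among 40 amino acid synthesis genes, with a median of 215 FPKM, the highest were leu1 (2751 ± 377 FPKM), ilv5 (2149 FPKM) and met26 (1627 ± 131 FPKM), and the lowest were lys7 (34.0 ± 0.516 FPKM) and arg7 (20.5 ± 1.27 FPKM). The leucine gene leu1 stood 6.88 ± 0.653 times above leu2 and 7.15 ± 0.562 times above leu3. The plasma membrane proton pump pma1 had 1533 ± 83.6 FPKM.

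Levels within 3 complexes spread to different degrees. All 33 proteasome genes lay between 34.5 and 255.5 FPKM, with a median of 148 FPKM. The extremes were pre5 at 255.5 ± 8.13 FPKM and rpn501 at 34.5 ± 2.32 FPKM, one of 2 gene copies for its subunit along with rpn502 at 57.2 ± 2.71 FPKM. Of their windows 6.84% and 6.85% are unique, so their split is uncertain. Of the 8 CCT chaperonin genes, 7 lay between 215 ± 9.78 FPKM (cct1) and 313 ± 9.14 FPKM (cct8). The exception was cct4, with 22.6, 19.5 and 16.8 FPKM in control libraries 0, 1 and 2. On the opposite strand of cct4, nat2 covers 96.7% of it and had 163 ± 0.812 FPKM. The listed ATP synthase genes ranged from atp2 at 899 ± 188 FPKM to atp18 at 45.8 ± 1.71 FPKM.

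Cell cycle regulators were far less abundant. The 17 genes had a median of 31.0 FPKM. The ribonucleotide reductase genes suc22 and cdc22 had 333 ± 7.98 and 276 ± 16.7 FPKM, and the mitotic cyclin cdc13 130 ± 9.24 FPKM. The cyclin-dependent kinase gene cdc2 had 60.2 ± 6.63 FPKM, its activator cdc25 31.8 ± 4.77 FPKM and its inhibitor wee1 10.99 ± 1.22 FPKM. The lowest were the cyclins cig2 (10.4 ± 0.540 FPKM) and puc1 (8.63 ± 1.35 FPKM). The 15 heterochromatin and RNAi genes had a median of 20.8 FPKM, from swi6, the heterochromatin protein, at 83.2 ± 0.748 FPKM to clr4, the H3K9 methyltransferase, at 8.05 ± 0.638 FPKM and its partner rik1 at 4.64 ± 0.125 FPKM.

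Some genes for one enzyme or protein differed widely in mRNA level and others little, among pairs picked by hand. The ratio of tdh1 over gpd3, the other glyceraldehyde 3-phosphate dehydrogenase gene (204 ± 50.5 FPKM), was 104.9, 107.6 and 66.7 in control libraries 0, 1 and 2. Enolase gene eno102 had 0, 0.490 and 0 FPKM against the 9715 FPKM of eno101. The ratio of pdc101 over pdc201 was 668 ± 88.4 and over pdc202 593 ± 12.8 (SD, n = 3 each). The ratio of the proton pump genes pma1 over pma2 was 78.7 ± 9.91, and that of the Hsp70 genes ssa2 over ssa1 66.7 ± 7.32. Other pairs were closer, with hxk2 over hxk1 at 2.56 ± 0.233, eft202 over eft201 at 1.89 ± 0.0615 and tif512 over tif51 at 1.14 ± 0.0793. Of 8 hexose transporter genes, ght8 had 232 ± 26.7 FPKM, ght2 115 ± 4.59 FPKM and ght5 34.5 ± 9.40 FPKM, and the lowest were ght1 at 1.38 ± 0.168 FPKM and ght7 at 0.566 ± 0.351 FPKM.

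Genes of other growth states were low, with exceptions. The 13 genes listed as glucose-repressed had a median of 9.91 FPKM. Among them fbp1 (fructose bisphosphatase of gluconeogenesis) had 14.6 ± 1.27 FPKM, inv1 (invertase) 9.64 ± 0.590 FPKM and gld1 (glycerol dehydrogenase) 6.33 ± 2.31 FPKM. In the same list the malic enzyme gene mae2 had 1143 ± 52.4 FPKM and the malate transporter gene mae1 290 ± 39.7 FPKM. Whether glucose represses each listed gene was not tested, so mae2 and mae1 are not shown to escape repression. Of the 7 thiamine-repressed genes, nmt1, whose promoter is widely used for regulated expression, had 14.7 ± 0.215 FPKM with SPNCRNA.1234 over all of it on the other strand, bsu1 9.34 ± 0.685 FPKM and the acid phosphatase pho4 97.3 ± 6.59 FPKM. The 24 meiosis genes had a median of 6.78 FPKM, and mei4, the meiotic transcription factor, had 7.07 FPKM. The highest was mcp7 at 57.2 ± 5.78 FPKM and the lowest were meu13 at 1.29 ± 1.16 FPKM and hop1 at 0.472 ± 0.231 FPKM. No meiosis gene was listed at 0 in every library.

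Nitrogen-starvation genes had a median of 32.5 FPKM over 13 genes, led by the oligopeptide transporter isp4, which had 225, 39.5 and 93.5 FPKM in control libraries 0, 1 and 2. The ammonium transporter amt3 had 0, 0.155 and 0 FPKM. The 16 core stress genes had a median of 72.8 FPKM. The highest were gpd1, for glycerol synthesis, at 622 ± 92.5 FPKM, the heat shock gene hsp9 at 525 ± 155 FPKM and the glutathione peroxidase gpx1 at 240 ± 41.2 FPKM. The lowest were the phosphatase pyp2 at 6.59 ± 1.45 FPKM and the calcium pump cta3 at 0.273 ± 0.119 FPKM. Phosphate genes were not low: pho84, a phosphate transporter, had 522 ± 153 FPKM, 89.0% of it overlapped by prt2 on the same strand, and the acid phosphatase pho1 182 ± 85.7 FPKM, while the transporter tgp1 had 8.46 ± 0.987 FPKM.

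Mating genes were mostly low, with a median of 10.4 FPKM over 18 genes. The mating-type entries of the table were those of the M (minus) cassettes. The regulator mat1-Mc had 3.84, 5.04 and 2.44 FPKM, and mat1-Mi, mat3-Mc and mat3-Mi were listed at 0 in every library. None of the 50-base windows of these 4 entries is unique in the genome, so the reads of a pair of copies cannot be told apart. Of the pheromone genes of M cells, mfm2 had 52.3, 53.3 and 99.4 FPKM in control libraries 0, 1 and 2, mfm3 7.62 ± 2.06 FPKM and mfm1 0, 1.72 and 1.67 FPKM. The protease gene sxa1 had 279 ± 10.2 FPKM, the highest of the 18 mating genes. The P-cell receptor gene map3 and the M-cell receptor gene mam2 differed by less than their spread, at 25.7 ± 1.12 and 24.8 ± 2.66 FPKM.

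Among selectable marker genes, 1 was listed at 0. The ura4 gene, whose loss makes cells need uracil and which is a common marker, was listed at 0 in all 3 control libraries. All of its 50-base windows are unique, and no other feature with a reference position overlaps it. The marker genes ade6 (145 ± 9.73 FPKM), his3 (198 ± 13.7 FPKM), his7 (415 ± 21.1 FPKM), lys1 (196 ± 7.29 FPKM) and arg3 (60.2 ± 5.48 FPKM) were all above the median of all protein-coding features. The GFP entry had 131, 148 and 161 FPKM in control libraries 0, 1 and 2, rank 807 of 7016. What drives it and where it is inserted is not given in the labels.

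Mitochondrial IDs ranked high. The 11 SPMIT entries had a median of 2372 FPKM and summed to 3.93 ± 0.348% of the FPKM (SD, n = 3). The highest were SPMIT.06 at 9135 ± 1579 FPKM, SPMIT.11 at 6180 ± 190 FPKM and SPMIT.04 at 4734 ± 216 FPKM. The lowest were SPMIT.03 at 475 ± 92.2 FPKM and SPMIT.09 at 26.9 ± 5.89 FPKM. In 9 of the 11, library 1 was the lowest of the 3, and in 9 of the 11 library 0 was the highest. Of all protein-coding genes with at least 10 FPKM, 30.7% were lowest in library 1 and 37.5% highest in library 0. The libraries were depleted of ribosomal RNA and not selected for poly(A), so RNAs without a tail are counted as well.

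Among non-coding RNAs, the highest were neighbours on chromosome III, SPNCRNA.1094 with 7536, 7363 and 7395 FPKM and SPNCRNA.1095 with 7192, 6944 and 7994 FPKM. In ASM294v3 they lie at chrIII:23658-23889 and chrIII:23919-24438 on the minus strand, 527 and 788 bases before an rRNA gene on that strand, SPRRNA.44 (chrIII:21289-23130), which was listed at 0. None of the 50-base windows of these 3 features is unique. Some known structural RNAs were also high: the signal recognition particle RNA srp7 had 2261 ± 39.0 FPKM, snu2 (U2 snRNA) 2029 ± 279 FPKM and the RNase MRP RNA, SPNCRNA.82, 1647 ± 89.5 FPKM. Another entry with the same symbol as SPNCRNA.82, SPNCRNA.727, had 65.4 ± 9.30 FPKM. Of the same list, snu4 and snoZ30 were listed at 0 in every library, and snu5 had 0, 69.9 and 0 FPKM. The U6 snRNA gene snu6, 94 bases long, had 2629, 7031 and 2886 FPKM in control libraries 0, 1 and 2, highest in library 1. The poly(A)-bearing prl53 had 3023 FPKM. Of SPNCRNA.510 (3068, 2910 and 6898 FPKM) and SPNCRNA.507 (2137 FPKM) the reference has no entry, and the same holds for SPAC27E2.13, the eighth feature of the table at 6649 ± 95.9 FPKM. Of snoRNAs the highest was sno12 at 2752 FPKM.

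Several abundant non-coding RNAs overlap an abundant gene on the other strand. SPNCRNA.1376 (2520 ± 186 FPKM) lies wholly inside tef103, SPNCRNA.92 (1749 ± 138 FPKM) wholly inside pma1, and SPNCRNA.826 (1889 FPKM) overlaps cpc2. Over all, 661 of 1444 SPNCRNA features with a reference position have 50% or more of their length under a protein-coding gene. Their median was 10.8 FPKM, against 2.84 FPKM for the other 783. The labels do not say whether strand was used in counting, so how reads were divided between a gene and its antisense partner is not known, and such levels are uncertain.

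In the reverse case, a protein-coding gene was at or near 0 beneath another feature on the opposite strand. Glutaminyl-tRNA ligase gene qrs1, the only one of the 18 ligase genes at 0, is 98.7% covered by SPNCRNA.576, which had 148, 147 and 139 FPKM in control libraries 0, 1 and 2. Transcription elongation gene iws1 was listed at 0 in all 3 libraries, and SPNCRNA.1508, which covers all of it, had 63.3 ± 0.896 FPKM. The translation release factor gene erf1 had 0.503, 0.873 and 1.41 FPKM beneath SPNCRNA.1017 at 267 ± 12.5 FPKM. The poly(A) polymerase gene cid11 was listed at 0, with avt5 opposite it at 13.9 ± 0.794 FPKM, and so was rng9, with SPNCRNA.1627 at 19.5 ± 1.51 FPKM. Among protein-coding genes other than Tf2 copies, with mostly unique sequence, 67 of 556 (12.1%) that were 90% or more covered by another feature had under 1 FPKM. Of 3931 that were less than 50% covered, 65 (1.65%) did. Whether the counting of overlapping features sets these values was not tested.

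Overlap was not found at every low value. The alcohol dehydrogenase gene adh1, the last step of fermentation, had 0.135, 0.208 and 0.0756 FPKM, and no feature with a reference position lies over it. The neighbouring SPCC13B11.02c (chrIII:1593402-1593818, - strand), whose role is not stated here, had 2675, 2249 and 2511 FPKM. The other alcohol dehydrogenase gene of the list, adh4, had 50.4 ± 3.06 FPKM. For adh1 the level in the cells is not to be read from this value alone.

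In all, 453 features (6.46%) were listed at 0 in all 3 control libraries and 256 more in 1 or 2 of them. By class, 166 of 171 transfer RNAs, 24 of 25 mitochondrial tRNAs, 43 of 49 ribosomal RNAs, 28 of 53 snoRNAs and all 4 SPMTR features were at 0 in every library. Of SPNCRNA features 110 were, and of chromosome-named genes 77 of 5158. Ribosomal RNA was depleted before the libraries were made. Length and repeats went with the zeros: of features under 100 bases with repeated sequence all 140 were at 0, and of those under 100 bases with mostly unique sequence 69 of 76 (90.8%). Of features of 1000 bases or more with mostly unique sequence 21 of 4767 were at 0 (0.441%), and of those with mostly repeated sequence 25 of 89 (28.1%). A listed 0 does not show that an RNA is absent.

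**Figure D3:**
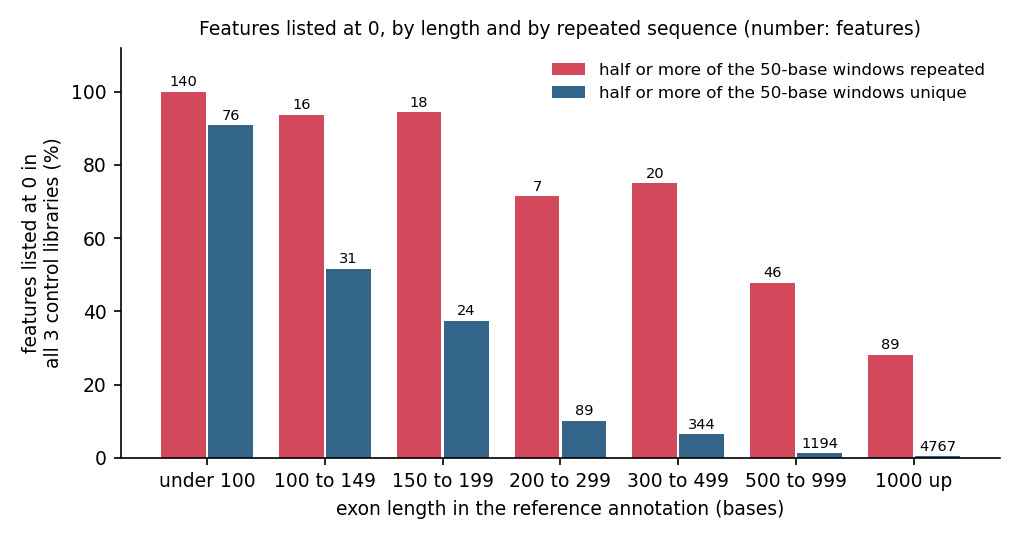
Share of features listed at 0 in all 3 control libraries (bars, %) by exon length in bases, for features with mostly repeated (red) and mostly unique (blue) 50-base windows; the number above a bar counts its features. In each length bin the repeated features are more often at 0, and under 100 bases 100% and 90.8% of the features are.

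The protein-coding genes at 0 fall into kinds. Of the 68, 9 were Tf2 retrotransposons, 34 had mostly repeated sequence, 12 were covered over 50% or more by another feature, and 13 were none of these. Of all 5095 protein-coding genes other than Tf2 copies, 88 had mostly repeated sequence. Among the rest, 1076 were 50% or more covered and 3931 less, and 1.12% and 0.331% of these were at 0. Of the 13 Tf2 elements the 4 not at 0 were Tf2-7 (6.05 ± 1.31 FPKM), Tf2-2 (2.39 ± 0.374 FPKM), Tf2-11 (1.68 ± 0.276 FPKM) and Tf2-10 (0.496 ± 0.0427 FPKM). The repeated kind held mating-type entries, the tandem gene cox1101, and families such as SPAC750, SPAC977, SPAC212 and SPBC1348, with the named genes ftm3, ftm4 and ayr2. The subtelomeric helicase genes tlh1 and tlh2 reached at most 0.0404 and 0.0426 FPKM in any library. In the covered kind were qrs1, iws1, rng9, cid11, ost5 and the amylase gene mde5. Among the remaining 13 were ura4 and bqt2, which bundles telomeres in meiosis. The other 11 had systematic names only, such as SPAC186.06 and SPAC1142.09.

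The 3 libraries resembled each other. Pearson's r of log2(FPKM + 1) over the 4956 features with a mean of at least 10 FPKM was 0.973 between libraries 0 and 1, 0.946 between 0 and 2 and 0.947 between 1 and 2. These are across features, which are not independent replicates. With features under 300 bases or without a length left out, it was 0.989, 0.986 and 0.992 over 4842 features. Between libraries 0 and 1, 25 of those 4842 differed by over 2-fold on the log2(FPKM + 1) scale, between 0 and 2, 38, and between 1 and 2, 25.

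The spread depended on level and on length. The median SD of log2(FPKM + 1) over the 6107 features with a mean of at least 1 FPKM was 0.111, and it was 0.293 for features from 1 to 3 FPKM, 0.119 from 10 to 30 FPKM and 0.0786 from 300 to 1000 FPKM. Above 1000 FPKM it was 0.119. Among features with a mean of at least 10 FPKM, those that varied most were short where a length is known. The tRNA SPBTRNAMET.05 had 0, 0 and 10585 FPKM and snoR39a 0, 5647 and 0 FPKM. The mitochondrial tRNA SPMITTRNASER.02 had 0, 0 and 3814 FPKM, and ost4, of 145 bases, 1185, 820 and 0 FPKM. Each of the 12 features with the largest SD had at least 1 library at or near 0. Because the filter is on the mean, 1 high library can be enough to pass it, and the SD is then large by construction. The 8 features with the smallest SD were protein-coding genes from 1079 to 11069 bases, against a median of 1682 bases for all protein-coding features. They include tif452, an eIF4E translation factor gene, with 106.6, 106.5 and 106.4 FPKM. Also among them are php2, of the CCAAT-binding complex (43.4, 43.3 and 43.3 FPKM), the kinase gene vps15, the growth control gene tsc1 and tra1 of the SAGA complex. Of the rest, bqt3 had 75.3 ± 0.0855 FPKM, lam1 26.4 ± 0.0605 FPKM and the siderophore transporter str2 10.2 ± 0.0192 FPKM.

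**Figure D4:**
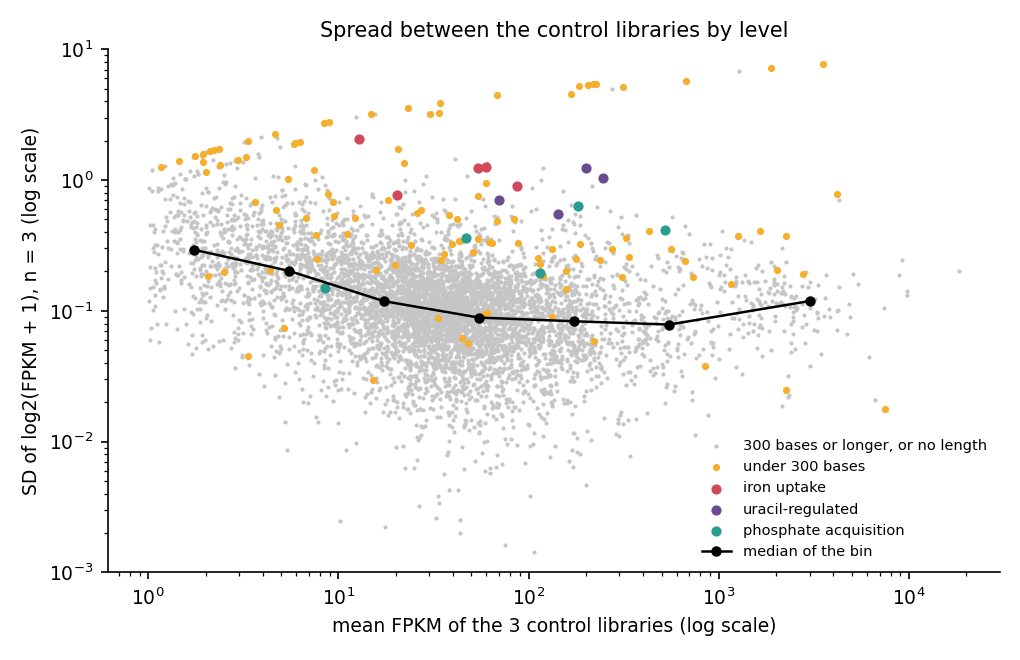
SD of log2(FPKM + 1) over the 3 control libraries against mean FPKM (both axes log), for features with a mean of at least 1 FPKM; orange marks features under 300 bases, other colours mark 3 gene groups and the black line joins the medians of level bins. The median falls to 0.0786 between 300 and 1000 FPKM, short features form an upper edge, and the 5 iron uptake genes lie above their bins' medians.

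Whole gene lists leaned together in 1 library. Of the 142 ribosomal protein genes, 127 were highest in library 0 and 134 lowest in library 2, with list medians of 1706, 1588 and 1388 FPKM in libraries 0, 1 and 2. Of the 16 glycolysis genes with at least 1 FPKM, 14 were highest in library 0 and 13 lowest in library 1. Of the 17 ligase genes 15 were lowest in library 2. Among all 4371 protein-coding genes with at least 10 FPKM, 37.5% were highest in library 0, 30.7% lowest in library 1 and 35.6% lowest in library 2. The ribosomal protein shift was small, a median of 0.103 above the gene mean in library 0 and -0.142 in library 2 on the log2(FPKM + 1) scale.

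Larger differences were seen in single genes. Of the 30 protein-coding genes with the largest SD on the log2 scale, among those of at least 30 FPKM and 300 exonic bases, 10 belong to 6 gene groups that were put together after their values were seen, and 20 do not. The largest SD was that of the alanine racemase gene alr2, with 10.6, 84.3 and 27.4 FPKM in control libraries 0, 1 and 2. Next among the genes outside the groups were the oligopeptide transporter gene isp4 (225, 39.5 and 93.5 FPKM), mfs3, of a spermidine transporter family (192.9, 48.0 and 107.6 FPKM), the phosphatase gene SPAC1039.02 (300.3, 251 and 93.7 FPKM), cbm1 (163, 101.5 and 48.2 FPKM) and the thioesterase gene the4 (217, 71.6 and 168 FPKM). These 5 were highest in library 0, and alr2 in library 1.

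Iron uptake genes were low in library 0: the iron permease gene fip1 had 15.9, 70.0 and 76.2 FPKM in control libraries 0, 1 and 2, its partner oxidase fio1 17.3, 71.6 and 89.4 FPKM, and the siderophore transporters str1 37.5, 125.8 and 96.3 FPKM and str3 0.691, 25.7 and 12.3 FPKM. The reductase frp1 had 10.9, 33.1 and 16.9 FPKM. All 5 were lowest in library 0. Other iron genes were mixed. Another siderophore transporter, str2, was among the 8 features with the smallest SD, and sib1 and sib2 were not lowest in library 0. The regulator genes fep1 and php4 were lowest there. Of the 13 genes of the iron and copper list, which includes the copper genes ctr4, ctr5 and ctr6, 7 were lowest in library 0. Most nuclear respiratory genes leaned the same way. Of 34 nuclear genes for the respiratory chain and ATP synthase, 30 were lowest in library 0, against 33.8% of all protein-coding genes with at least 10 FPKM. The other 4, the succinate dehydrogenase genes sdh1, sdh2 and sdh3 and the gene cox7, were highest in library 0. The NADH dehydrogenase gene nde1 had 131, 279 and 279 FPKM, and the cytochrome bc1 subunit gene qcr7 had 116, 213 and 228 FPKM. In the other direction, copper transporter genes ctr4 (209, 126 and 117 FPKM) and ctr5 (154, 83.2 and 72.3 FPKM) were highest in library 0.

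Uracil-regulated genes followed another order. The gene urg1 had 361, 176 and 64.7 FPKM in control libraries 0, 1 and 2, urg2 437, 195 and 104 FPKM, urg3 195, 144 and 91.0 FPKM and uck2, a uracil phosphoribosyltransferase gene, 110, 57.5 and 41.5 FPKM. All 4 were highest in library 0 and lowest in library 2. Arginine breakdown genes peaked in library 1: arginase gene aru1 had 785, 1375 and 949 FPKM, ornithine transaminase gene car2 1246, 2194 and 1504 FPKM and arginase gene car1 30.2, 57.5 and 39.0 FPKM. Phosphate acquisition genes peaked in library 2, with pho1 at 145, 121 and 280 FPKM and pho84 at 483, 393 and 692 FPKM, and all 5 genes examined were highest there. The replicate flasks, days or strains behind these columns are not given, and no cause was tested.

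**Figure D5:**
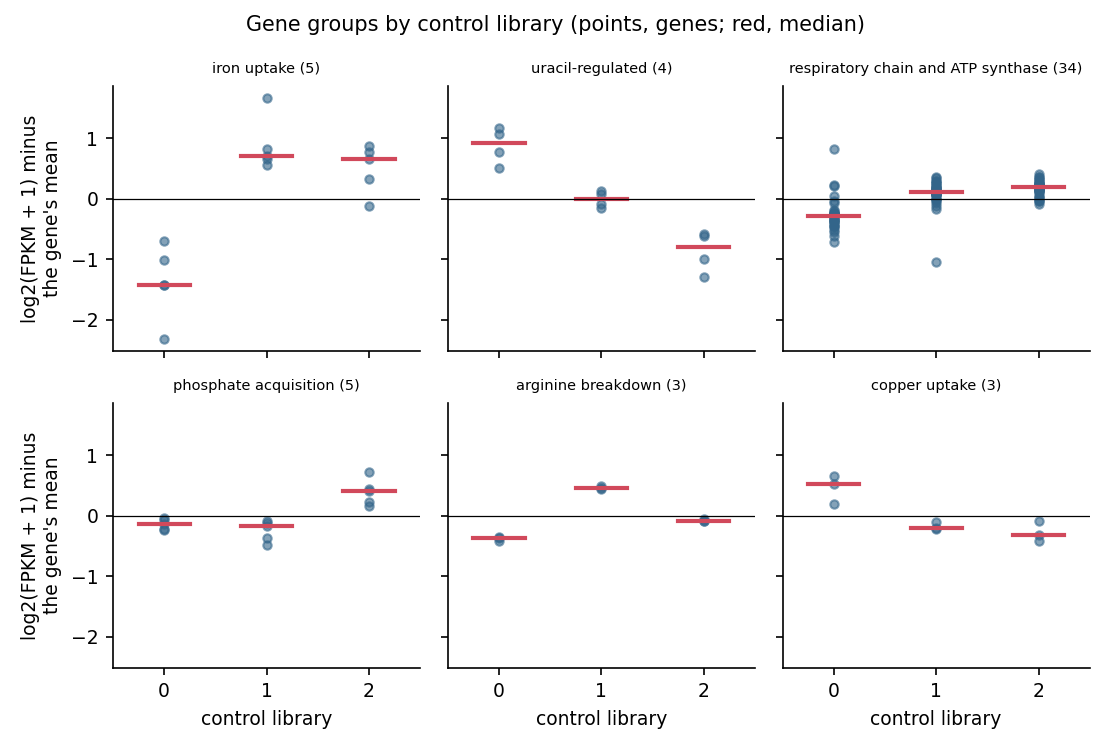
Deviation of log2(FPKM + 1) from each gene's mean over the 3 control libraries, by library, for 6 groups grouped after the values were seen (points, genes; red bars, medians; number of genes in brackets). Iron uptake genes sit at a median of -1.42 in library 0, uracil-regulated genes at 0.924 in library 0 and -0.803 in library 2, and phosphate genes above 0 in library 2.

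A known element was searched before the iron uptake genes. The factor Fep1, a GATA-type repressor of iron uptake in fission yeast, binds a GATA-type sequence, and the letters ATCAGATAA or ATCTGATAA, on both strands, were searched in the 1000 bases before the start. They were found before all 5 iron uptake genes and before 204 of 5108 protein-coding genes (3.99%). The count depended on the window: in the 250 bases before and 50 bases after the start used above for the other boxes, 4 of the 5 held them and 1.16% of all, and in the 250 bases before the start alone, 3 of the 5 and 1.12%. These 5 genes were chosen after their values were seen, the element was one already known from iron uptake, and fio1 and fip1 were counted for the same site. The counts describe the sequence and lend no support to a link between the element and the levels. The stretches that hold them in the 1000 bases before the start are shown, with the matched letters in capitals, to show the element and its flanks. A match counted only when the 50 bases after the start were included is not shown. The element of fio1 is also that of fip1, on the other strand, in the promoter the 2 genes share.
fio1 (chrI:4234821-4234859, + strand): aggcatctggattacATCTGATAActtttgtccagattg
str1 (chrII:2704189-2704227, + strand): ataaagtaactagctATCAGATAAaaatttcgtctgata
str3 (chrI:90887-90925, - strand): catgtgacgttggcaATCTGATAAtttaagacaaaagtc
frp1, distal (chrII:162757-162795, - strand): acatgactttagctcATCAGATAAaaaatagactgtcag
frp1, proximal (chrII:162465-162503, - strand): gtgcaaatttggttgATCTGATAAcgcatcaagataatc
Fep1 itself had 46.5, 56.7 and 49.3 FPKM in control libraries 0, 1 and 2. The repressor gene php4, which acts when iron is scarce, had 22.2, 34.5 and 33.1 FPKM. A match of letters is a description and does not show that a factor was bound in these cells.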

How the data were processed

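RNA was depleted of ribosomal RNA and sequenced paired-end on a MiSeq, per the labels' protocols, with a TruSeq kit. Whether strand was used in counting is not stated there. The submitters' processing notes name CASAVA 1.4, TopHat2 and Cuffdiff. No genome build or annotation of the authors is named in the labels or the table. The deposited table, made by the authors, holds FPKM per feature and library, and the control columns were read by name. Means, SDs, medians, shares of summed FPKM and log2(FPKM + 1) values were computed with Python 3.11.15, pandas 2.3.3 and numpy 2.4.6. Names, positions, lengths and sequences come from NCBI RefSeq, ASM294v3. No column was left unmapped. FPKM carries no depth. Low values of 1-exon genes over 600 bases spaced best at 4580000, 6040000 and 4090000 fragments in control libraries 0, 1 and 2. The search ran from 3000000 to 6500000, with an effective length offset of 140 bases. At these depths 64.2%, 56.5% and 56.0% of values lay within 0.15 of a whole number. Evenly spread values would give 30% at a depth fixed beforehand. The depths were picked as the best of the search, so that 30% is no fair comparison and the shares do not test them. These depths are estimates, and no counting intervals are given. The depth and spread steps were also run on simulated data, but the outcome is not given here and lends these values no support. Named genes are the highest and lowest of each list, the highest of each class, features at 0 and the most and least variable. Genes named beyond that rule, the nutrient groups and the positions of overlapping genes were chosen after their values were seen. Ribosomal protein genes were listed by symbol, and rpl35A01, rpl35A02, ubi2 and ubi5 were added by their reference product after the values were seen. The members and lists were chosen with earlier results of these data known.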

Additional observations from a re-analysis of the deposited data

How the results depend on the processing

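No paired analysis was possible because no test was run and the control columns carry no replicate number of the labels. Of 48 alternatives over 8 summary values, 30 moved the value by less than the spread between libraries, or by under 1.5 times for a count. With library values combined by their median, the median over all features was 27.4 FPKM. Rescaling each library to a sum of 1000000 gave medians of 32.4 for all features, 45.9 for protein-coding and 5.29 for SPNCRNA features. Features with a mean of at least 1 FPKM alone gave 34.2, 41.2 and 8.86 FPKM. The ribosomal protein share was 33.1% of the summed FPKM of protein-coding features. The median SD of log2 values was 0.0941 with a pseudocount of 5 and 0.0980 for features of at least 10 FPKM. Boxes of the HomolD type were in 46.5% of the 200 most abundant promoters and in 14% of the 100 most abundant without ribosomal protein genes. Leaving out each library in turn gave 27.5 to 27.7 FPKM for all features, 39.0 to 39.3 FPKM for protein-coding features, a median SD of 0.0844 to 0.0990 and 60% to 62% for the boxes. Values of short features, listed zeros and paralogs are to be read with care. Zeros went with short length and with repeated sequence, and whether either sets them was not tested.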
